A study of Homo sapiens with 10 samples.

Results

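The genes described here encode the translation initiation factors (symbols starting with EIF) and elongation factors (symbols starting with EEF). Of the 23284 rows in the table, 71 carried such a symbol, and the 64 whose average across the 10 samples reached 0.5 FPKM were retained. FPKM is the number of fragments scaled to transcript length and to the mapped reads of the library. The cells were K562, an established human erythroleukemia line derived from chronic myeloid leukemia. They were treated for 48 h with the vehicle DMSO, with CBP30 at 2 or 5 µM, or with I-CBP112 at 2 or 5 µM, and each of the 5 conditions had 2 samples. CBP30 and I-CBP112 are inhibitors of different scaffold that bind the bromodomain, the acetyl-lysine reader, of the acetyltransferases CREBBP and EP300. Polyadenylated RNA was sequenced from all 10 samples. The labels call the samples of a condition biological replicates, without saying how they were separated. In the main fit, the p-values set a difference between conditions against the spread between such replicates, estimated over all 5 conditions together.

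Translation of an mRNA begins when eIF2, carrying GTP and the initiator methionyl tRNA, joins the small ribosomal subunit together with eIF1, eIF1A, eIF5 and the large scaffold eIF3. The cap-binding complex eIF4F (the cap-binding protein eIF4E, the scaffold eIF4G and the helicase eIF4A) brings this assembly to the mRNA, and 4E-BP proteins hold eIF4E back when mTORC1 signalling is low. eIF2B reloads eIF2 with GTP, and stress kinases slow this step by phosphorylating the alpha subunit of eIF2. In elongation, eEF1A delivers aminoacyl tRNA, the eEF1B complex reloads eEF1A with GTP, and eEF2 moves the ribosome along the mRNA. Erythroid cells depend on high translation rates to make globin, and the heme-regulated kinase encoded by EIF2AK1 couples this to heme supply.

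The libraries had a median over the tested genes between 11.06 and 11.63 FPKM and FPKM sums between 547504 and 689095. The sums were lowest with 5 µM CBP30, at 547504 and 551586, against 614878 and 611234 with DMSO. The medians of these libraries were 11.63 and 11.56 FPKM with 5 µM CBP30 and 11.58 and 11.62 with DMSO. Replicate 1 of 2 µM CBP30 stood apart. Across the tested genes, its deviation from the DMSO mean had a Spearman rho of -0.468 with transcript length, beside values between -0.162 and 0.197 in the other libraries. Counts of calls for CBP30 against DMSO are therefore given with and without it. For 5 µM CBP30 against DMSO, single genes whose calls change without it are named. The summed level of 7 K562 markers (GATA1, TAL1, KLF1, HBG1, HBG2, HBE1 and TFRC) was 1268.3 and 1257.9 FPKM with DMSO, 698.2 and 548.5 with 2 µM CBP30, 506.8 and 525.0 with 5 µM CBP30, 817.8 and 891.2 at 2 µM I-CBP112 and 855.6 and 796.4 at 5 µM I-CBP112, and every marker was detected in every sample. Of 5 markers of other lineages, CD3E, PAX5, COL1A1 and PECAM1 stayed at or under 3.31 FPKM, and the epithelial marker EPCAM was listed at 31.8 to 59.7 FPKM. The markers did not all move one way: with 5 µM CBP30, KLF1 was at 8.4 and 8.49 FPKM against 68.8 and 61.9 with DMSO, while TAL1 was at 23.4 and 24.2 against 17.4 and 17.4. The part of these markers in the results below was not tested. In bulk RNA, fewer cells of a kind and less RNA per cell cannot be told apart.

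Many mRNAs of the translation machinery start with a C followed by an uninterrupted run of pyrimidines, the 5′ terminal oligopyrimidine (TOP) feature through which mTORC1 and LARP1 are known to control their translation. Windows of 300 bases around the start site, taken from RefSeq (GRCh38.p14) and reaching 250 bases before the start, were matched for 52 of 63 members, with the read-through transcript left out. A C at the start followed by at least 4 of C or T was present in 11 of the 52 (21.2%), against 5.66% of 8650 tested genes with such a window and 4.043% of all 27305 windows. These starts are shown for members on which the results turn, in windows of 30 bases centred on the start, with the pyrimidine run from the start in capitals:
EEF1A1 (chr6:73521018-73521047, minus strand): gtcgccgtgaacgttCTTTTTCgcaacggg
EEF2 (chr19:3985449-3985478, minus strand): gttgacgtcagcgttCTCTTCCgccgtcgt
EIF3D (chr22:36529152-36529181, minus strand): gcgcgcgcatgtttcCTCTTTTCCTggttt
EIF3F (chr11:7987322-7987351, plus strand): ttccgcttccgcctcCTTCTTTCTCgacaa
EIF3M (chr11:32583816-32583845, plus strand): gcgcggcccagttccCTTTTCCggtcggcg
EIF2S3 (chrX:24054941-24054970, plus strand): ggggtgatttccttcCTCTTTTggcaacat
EIF2A (chr3:150546772-150546801, plus strand): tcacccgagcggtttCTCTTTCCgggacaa
EIF4B (chr12:53006441-53006470, plus strand): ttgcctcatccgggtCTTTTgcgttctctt
EIF4A2 (chr3:186783562-186783591, plus strand): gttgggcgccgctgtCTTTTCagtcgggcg

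The hexamer CACGTG, the E-box known to be read by MYC and related factors, was searched on both strands, on which it reads the same. It was found in 14 of the 52 windows (26.9%), against 10.4% of the windows of tested genes and 7.435% of all windows. The matches are shown in capitals for members on which the results turn, the cap-binding gene EIF4E, its scaffold EIF4G1, the helicase cofactor EIF4B and EIF5A2:
EIF4E (chr4:98929341-98929370, minus strand): ctacccatcggcCACGTGaccagtcctttt
EIF4E (chr4:98929188-98929217, minus strand): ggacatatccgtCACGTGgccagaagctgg
EIF4G1 (chr3:184314450-184314479, plus strand): ggctgtggctgtCACGTGacggggcggggg
EIF4G1 (chr3:184314527-184314556, plus strand): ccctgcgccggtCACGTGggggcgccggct
EIF4B (chr12:53006422-53006451, plus strand): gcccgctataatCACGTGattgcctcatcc
EIF5A2 (chr3:170908807-170908836, minus strand): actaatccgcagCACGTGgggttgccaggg
EIF5A2 (chr3:170908782-170908811, minus strand): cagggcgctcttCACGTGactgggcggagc
A match describes the letters in these windows and does not show a binding site.

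In DMSO the members spanned a wide range of levels, which FPKM expresses per transcript length. The lowest DMSO mean was 1.23 FPKM (EIF4E3, a cap-binding protein of low abundance here), the median was 70.0 and the highest was 5938 (EEF1A1). Altogether 28 members were at 100 FPKM or more and 11 were under 10. The median over all tested genes was 11.58 and 11.62 FPKM in the DMSO samples, so the members lay mostly above it. Without EEF1A1, the other 63 members made up 1.97% and 1.99% of the FPKM sum with DMSO, and 1.62% and 1.60% with 5 µM CBP30. With 2 µM CBP30 they made up 1.84% and 1.82%, with 2 µM I-CBP112 1.91% and 1.95%, and with 5 µM I-CBP112 1.92% and 1.88%.

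Treatment with 5 µM CBP30 for 48 h was followed by lower mRNA levels of most translation factors. Compared with DMSO, 38 of 64 members (59.4%) were called lower, beside 25.4% of all 12788 genes tested, and 6 (9.4%) were called higher, beside 21.2% of all genes. The shares of all genes are not matched to the members by level, and the part of level was not tested. A gene was called when limma, fitted to log2(FPKM + 1) of all 10 samples, gave a Benjamini-Hochberg adjusted p under 0.05 over all genes tested. The median difference of the members was -0.30 on this log2 scale, against -0.01 over all genes, and 51 of 64 were below 0. All differences below are on this scale, with the standard error of the fit after ±, and understate the change of genes at a few FPKM. Of the calls, 25 of the 38 lower members and 3 of the 6 higher ones (EIF2C3, EIF4EBP2 and EIF5A2) passed the threshold in every alternative analysis in which they were tested. Leaving out replicate 1 of 2 µM CBP30 gave 44 lower and 8 higher, beside 33.5% and 29.5% of all genes. No call was lost, and 8 were gained: EEF1D, EEFSEC, EIF2B3, EIF4A3, EIF4ENIF1 and EIF5A as lower, and EIF2AK2 and EIF2AK4 as higher. Leaving out replicate 2 of 2 µM CBP30 instead gained the same calls and lost none. These differences do not change with the 2 µM samples, which enter them only through the shared estimate of the spread.

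**Figure D1:**
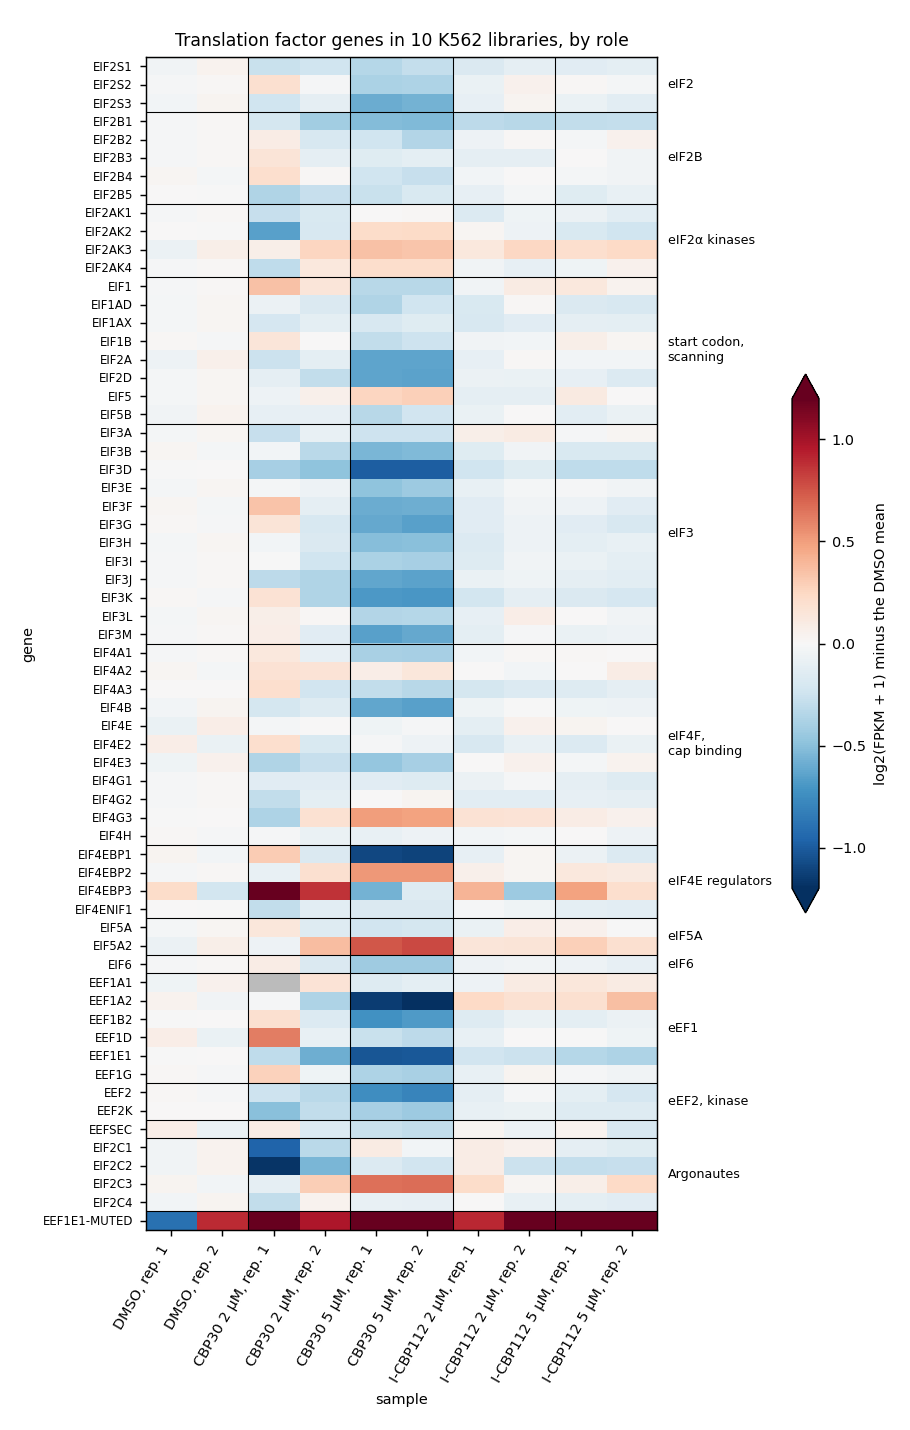
Each cell shows log2(FPKM + 1) of a gene in a sample minus the mean of the DMSO samples, with genes in rows by role and the 10 samples in columns; blue is lower than DMSO, red higher, and the grey cell is EEF1A1 where it is listed at 0. The columns of 5 µM CBP30 are blue over nearly the whole eIF2 and eIF3 blocks, with red cells for EIF5A2, EIF2C3, EIF4EBP2 and EIF4G3, while the I-CBP112 columns stay pale apart from EIF4EBP3 and the read-through row EEF1E1-MUTED.

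The ternary complex genes were all lower with 5 µM CBP30. The 3 eIF2 subunits were called lower, by -0.32 to -0.58. EIF2S3, the gamma subunit that binds GTP and the initiator tRNA, was at 474 and 498 FPKM with DMSO, 412 and 450.0 with 2 µM CBP30, 322 and 328 with 5 µM CBP30, 453 and 496 at 2 µM I-CBP112, and 460.4 and 444 at 5 µM I-CBP112. Its 5 µM CBP30 samples lay below all others (-0.58 ± 0.072, adjusted p = 6.51e-04). EIF2S1, the alpha subunit phosphorylated in stress, was at 37 and 39.5 FPKM with DMSO, 31.7 and 32.3 with 2 µM CBP30, 29.9 and 31.1 with 5 µM CBP30, 33.7 and 35.3 at 2 µM I-CBP112, and 34.6 and 35.2 at 5 µM I-CBP112. Every treated sample of EIF2S1 was below both DMSO samples, and the differences with 5 µM CBP30 (-0.32 ± 0.052, adjusted p = 0.00226) and 2 µM CBP30 (-0.25 ± 0.052, adjusted p = 0.0114) were called. EIF2S2, the beta subunit, differed by -0.38 ± 0.078, adjusted p = 0.00619 at 5 µM CBP30.

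Of the 5 subunits of the exchange factor eIF2B, 4 were called lower with 5 µM CBP30, and EIF2B3 was not (-0.13, 95% interval -0.32 to 0.06, adjusted p = 0.214). EIF2B3 was called lower with either 2 µM CBP30 replicate left out and with only the groups compared (adjusted p = 0.0154). EIF2B1, the regulatory alpha subunit, was at 67.3 and 68.6 FPKM with DMSO, 58.7 and 50.6 with 2 µM CBP30, 47 and 46.7 with 5 µM CBP30, 54.4 and 53.9 at 2 µM I-CBP112, and 55.2 and 55.4 at 5 µM I-CBP112. All 8 treated samples of EIF2B1 were below DMSO. The call was made for CBP30 at 5 µM (-0.53 ± 0.068, adjusted p = 7.65e-04) and at 2 µM (-0.31 ± 0.068, adjusted p = 0.0135), and for I-CBP112 at 5 µM (-0.29 ± 0.068, adjusted p = 0.0483). The other called subunits, EIF2B2, EIF2B4 and EIF2B5, differed by -0.30, -0.26 and -0.22. The EIF2B2 call was lost with median centring (-0.30, adjusted p = 0.0515) and the EIF2B5 call with the length trend removed (-0.15, adjusted p = 0.0904). The calls of EIF2B2, EIF2B4 and EIF2B5 were each lost in some fits with a sample left out.

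The kinases of eIF2 alpha did not follow the subunits. None of the 4 was called lower with 5 µM CBP30. EIF2AK3 (PERK, the kinase of the endoplasmic reticulum stress response) was at 3.81 and 4.28 FPKM with DMSO, 4.29 and 5.03 with 2 µM CBP30, 5.45 and 5.35 with 5 µM CBP30, 4.51 and 4.98 at 2 µM I-CBP112, and 4.79 and 4.96 at 5 µM I-CBP112. Its 5 µM CBP30 samples were the highest of the 10 and the difference was called (0.35 ± 0.086, adjusted p = 0.0138). EIF2AK1 (HRI, the heme-regulated kinase) had the highest DMSO level of the kinases and was at 83.5 and 85.2 FPKM with DMSO, 69.6 and 74.3 with 2 µM CBP30, 84.7 and 85 with 5 µM CBP30, 75.4 and 81.2 at 2 µM I-CBP112, and 80.3 and 77 at 5 µM I-CBP112. At 5 µM CBP30 it overlapped with DMSO, with a difference of 0.01 (95% interval -0.12 to 0.14; adjusted p = 0.919), whereas it was called lower at 2 µM (-0.23 ± 0.057, adjusted p = 0.0228). EIF2AK4 (GCN2, which senses uncharged tRNA) was at 9.95 and 10.1 FPKM with DMSO, 7.93 and 11 with 2 µM CBP30, 11.8 and 11.8 with 5 µM CBP30, 9.73 and 9.31 at 2 µM I-CBP112, and 9.64 and 10.4 at 5 µM I-CBP112. Its difference at 5 µM CBP30 was 0.21 (95% interval -0.08 to 0.51; adjusted p = 0.199). EIF2AK2 (PKR, activated by double-stranded RNA) differed by 0.22 (95% interval -0.09 to 0.53; adjusted p = 0.212). Both were called higher with either 2 µM CBP30 replicate left out. They were also called with only the groups compared (adjusted p = 0.0121 for EIF2AK4 and 0.0114 for EIF2AK2). The EIF2AK3 call was lost without replicate 1 of DMSO or either replicate of 5 µM CBP30 (differences of 0.28 to 0.36). The number of kinases called higher therefore depended on the setting.

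Among the 8 factors of scanning and start codon choice, 7 were called lower with 5 µM CBP30 and EIF5 was called higher. EIF1, which keeps the scanning ribosome in an open state, was at 590.0 and 604 FPKM with DMSO, 762 and 659 with 2 µM CBP30, 474 and 474 with 5 µM CBP30, 579 and 638 at 2 µM I-CBP112, and 653 and 613 at 5 µM I-CBP112. The 5 µM CBP30 samples were the lowest and the 2 µM CBP30 samples the highest of the 10, and the difference at 5 µM was called (-0.33 ± 0.087, adjusted p = 0.0175). EIF2D, which can deliver tRNA to the ribosome without GTP, was at 55.5 and 57.4 FPKM with DMSO, 52.3 and 45.7 with 2 µM CBP30, 36 and 35.8 with 5 µM CBP30, 53.6 and 53.4 at 2 µM I-CBP112, and 52.7 and 50.2 at 5 µM I-CBP112. It had the strongest fall in the group (-0.64 ± 0.068, adjusted p = 3.29e-04), with EIF2A, an alternative initiator tRNA carrier, close to it (-0.63 ± 0.069, adjusted p = 3.77e-04). EIF5, the factor that triggers GTP hydrolysis by eIF2 at the start codon, was at 39.3 and 40.5 FPKM with DMSO, 38.2 and 41.6 with 2 µM CBP30, 47.8 and 49 with 5 µM CBP30, 36.9 and 36.9 at 2 µM I-CBP112, and 43.1 and 40.1 at 5 µM I-CBP112. The samples treated with 5 µM CBP30 were above all the others (0.27 ± 0.058, adjusted p = 0.00754). The remaining members EIF1AD, EIF1AX, EIF1B and EIF5B, the GTPase of subunit joining, differed by -0.30, -0.17, -0.27 and -0.28, and each of them was called. In this group only EIF2A and EIF2D passed in every alternative in which they were tested. Quantile normalization removed the calls of EIF1AX (-0.04, adjusted p = 0.686) and EIF5B (-0.17, adjusted p = 0.0851). Removing the length trend took that of EIF1B (-0.12, adjusted p = 0.155). Those of EIF1, EIF1AD and EIF5 were lost in some fits with a sample left out.

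All 12 retained subunits of eIF3, the scaffold that binds the small ribosomal subunit, were called lower with 5 µM CBP30, with a median difference of -0.57. The levels at 5 µM CBP30 were between 50.2% (EIF3D) and 84.3% (EIF3A) of the DMSO mean. EIF3D, a subunit that can itself bind the cap of some mRNAs, was at 169 and 169.6 FPKM with DMSO, 128 and 121 with 2 µM CBP30, 84.8 and 85 with 5 µM CBP30, 143 and 153 at 2 µM I-CBP112, and 137 and 137 at 5 µM I-CBP112. It fell in steps over the CBP30 concentrations, without overlap between DMSO, 2 µM (-0.44 ± 0.053, adjusted p = 0.00137) and 5 µM (-0.99 ± 0.053, adjusted p = 1.92e-05). With 5 µM I-CBP112 it was also called lower (-0.30 ± 0.053, adjusted p = 0.0195). EIF3E, the subunit with the highest DMSO level, was at 588 and 609 FPKM with DMSO, 588 and 573 with 2 µM CBP30, 427 and 441 with 5 µM CBP30, 561 and 590.3 at 2 µM I-CBP112, and 592 and 583 at 5 µM I-CBP112. Only the 5 µM CBP30 samples stood clear of the others (-0.46 ± 0.057, adjusted p = 6.28e-04). The smallest difference was that of EIF3A, the largest core subunit (-0.24 ± 0.065, adjusted p = 0.0188), and the next were EIF3L (-0.35) and EIF3I (-0.39). EIF3K, EIF3M, EIF3G, EIF3J and EIF3F lay between -0.59 and -0.69. Of the 12 calls, 9 passed in every alternative in which they were tested, and those of EIF3A, EIF3F and EIF3K did not. At 2 µM CBP30 only EIF3D and EIF3J were called, and the median of the 12 was -0.10.

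The subunit gene EIF3C and its copy EIF3CL were listed at no more than 0.0222 FPKM in any sample, although eIF3c is a core subunit. Of the windows of 50 bases in their transcripts, 98.8% and 98.7% also occur in transcripts of other genes, so their listed levels are uncertain and no difference is given. They are among the 7 matching rows under the minimum, with EIF1AY, EIF4E1B, EIF5AL1, EEF1DP3 and EIF3IP1.

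**Figure D2:**
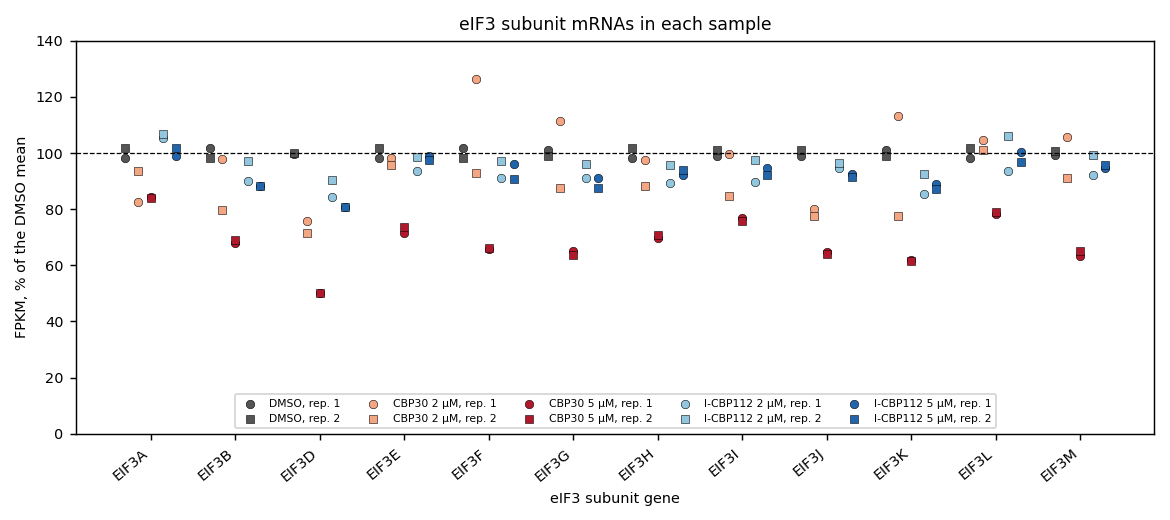
The level of each eIF3 subunit gene (horizontal axis) is shown as a percentage of its DMSO mean (vertical axis, from 0) in each of the 10 samples, with circles for replicate 1 and squares for replicate 2. The dark red 5 µM CBP30 points lie under the dashed line at 100% for every subunit and nearly coincide, while the replicates of 2 µM CBP30 lie apart for EIF3F and EIF3K.

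The cap-binding group was mixed. Of 11 genes, EIF4A1, EIF4B, EIF4E3 and EIF4G1 were called lower with 5 µM CBP30, and EIF4G3 was called higher. EIF4E, which binds the cap, was at 52.6 and 59 FPKM with DMSO, 54.8 and 56 with 2 µM CBP30, 53.7 and 55.1 with 5 µM CBP30, 51.2 and 57.8 at 2 µM I-CBP112, and 57.2 and 56 at 5 µM I-CBP112. The groups overlapped throughout, and the difference at 5 µM CBP30 was -0.03 (95% interval -0.21 to 0.14; adjusted p = 0.744). EIF4A1, the main helicase, was at 542 and 551 FPKM with DMSO, 598 and 509.7 with 2 µM CBP30, 417 and 414 with 5 µM CBP30, 535 and 553 at 2 µM I-CBP112, and 552 and 549.5 at 5 µM I-CBP112. With 5 µM CBP30 it was the lowest (-0.39 ± 0.079, adjusted p = 0.00564), and its paralog EIF4A2 differed by 0.11 (95% interval -0.01 to 0.22; adjusted p = 0.128). EIF4B, a cofactor of the helicase, was at 345 and 361 FPKM with DMSO, 305 and 317 with 2 µM CBP30, 228 and 224 with 5 µM CBP30, 341 and 352 at 2 µM I-CBP112, and 341 and 339 at 5 µM I-CBP112. It had the strongest fall of the group (-0.64 ± 0.052, adjusted p = 1.06e-04) and was also called at 2 µM (-0.18 ± 0.052, adjusted p = 0.0361). All windows of 50 bases of the EIF4A1 transcript also occur in transcripts of 1 or more of 9 other annotated genes, and the closest of these holds 91.7% of them, so its value is uncertain.

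The scaffold genes EIF4G1 and EIF4G3 moved in opposite directions. EIF4G1 was at 78.6 and 80.2 FPKM with DMSO, 72.4 and 72.2 with 2 µM CBP30, 72.4 and 71.2 with 5 µM CBP30, 75.5 and 78.7 at 2 µM I-CBP112, and 73.5 and 71.4 at 5 µM I-CBP112. It was a little lower with every treatment except 2 µM I-CBP112, where the samples overlapped with DMSO, and the difference was called at 5 µM CBP30 only (-0.14 ± 0.045, adjusted p = 0.0331). EIF4G3 was at 21.2 and 21.3 FPKM with DMSO, 16.2 and 24.2 with 2 µM CBP30, 30.4 and 30.1 with 5 µM CBP30, 24.1 and 23.9 at 2 µM I-CBP112, and 22.7 and 22 at 5 µM I-CBP112. The 5 µM CBP30 samples were the highest (0.49 ± 0.15, adjusted p = 0.0333), and the replicates of 2 µM CBP30 lay on either side of DMSO. The EIF4G3 call was lost with no filter (0.49, adjusted p = 0.0520). It was also lost without any single sample of DMSO, 5 µM CBP30 or I-CBP112, where the difference was 0.48 to 0.49. The ratio of EIF4G1 to EIF4G3 was 3.70 and 3.76 with DMSO, and 2.38 and 2.37 with 5 µM CBP30. EIF4G2, the scaffold DAP5 of cap-independent initiation, differed by 0.02 (95% interval -0.14 to 0.17; adjusted p = 0.865). The EIF4G1 call was lost with quantile normalization, where the difference was -0.04, with the replicate block (adjusted p = 0.0522), and without any single sample of DMSO, 5 µM CBP30 or 5 µM I-CBP112 (-0.16 to -0.13, adjusted p = 0.0551 to 0.142).

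The 4E-BP genes, whose products hold back eIF4E, also parted. EIF4EBP1 was at 202 and 192 FPKM with DMSO, 243 and 175 with 2 µM CBP30, 92.1 and 90.6 with 5 µM CBP30, 184 and 200.5 at 2 µM I-CBP112, and 187 and 176 at 5 µM I-CBP112. Both samples of 5 µM CBP30 were under 100 FPKM while all others were at 175 or more (-1.10 ± 0.14, adjusted p = 7.30e-04). EIF4EBP2 was at 40.9 and 41.5 FPKM with DMSO, 38.8 and 47.1 with 2 µM CBP30, 59.4 and 59.5 with 5 µM CBP30, 43 and 41.8 at 2 µM I-CBP112, and 45 and 44.4 at 5 µM I-CBP112. Here the 5 µM CBP30 samples were the highest (0.52 ± 0.083, adjusted p = 0.00205). The ratio of EIF4EBP1 to EIF4EBP2 went from 4.94 and 4.62 with DMSO to 1.55 and 1.52 with 5 µM CBP30, and was 3.96 to 4.79 with I-CBP112. The summed level of the 3 4E-BP genes per EIF4E was 4.69 and 3.99 with DMSO and 2.85 and 2.77 with 5 µM CBP30. EIF4EBP3 was low and scattered, with 1.88 and 2.82 FPKM at 5 µM CBP30 and 3.97 and 2.64 with DMSO (-0.36, 95% interval -1.14 to 0.43, adjusted p = 0.412), and 71.6% of its windows are shared with a read-through transcript. EIF4ENIF1, the nuclear importer of eIF4E, differed by -0.17 (95% interval -0.32 to -0.02; adjusted p = 0.063). It was called lower with either 2 µM CBP30 replicate left out and with only the groups compared (adjusted p = 0.0244). The same held with median centring (adjusted p = 0.0362) and quantile normalization (adjusted p = 0.0181).

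**Figure D3:**
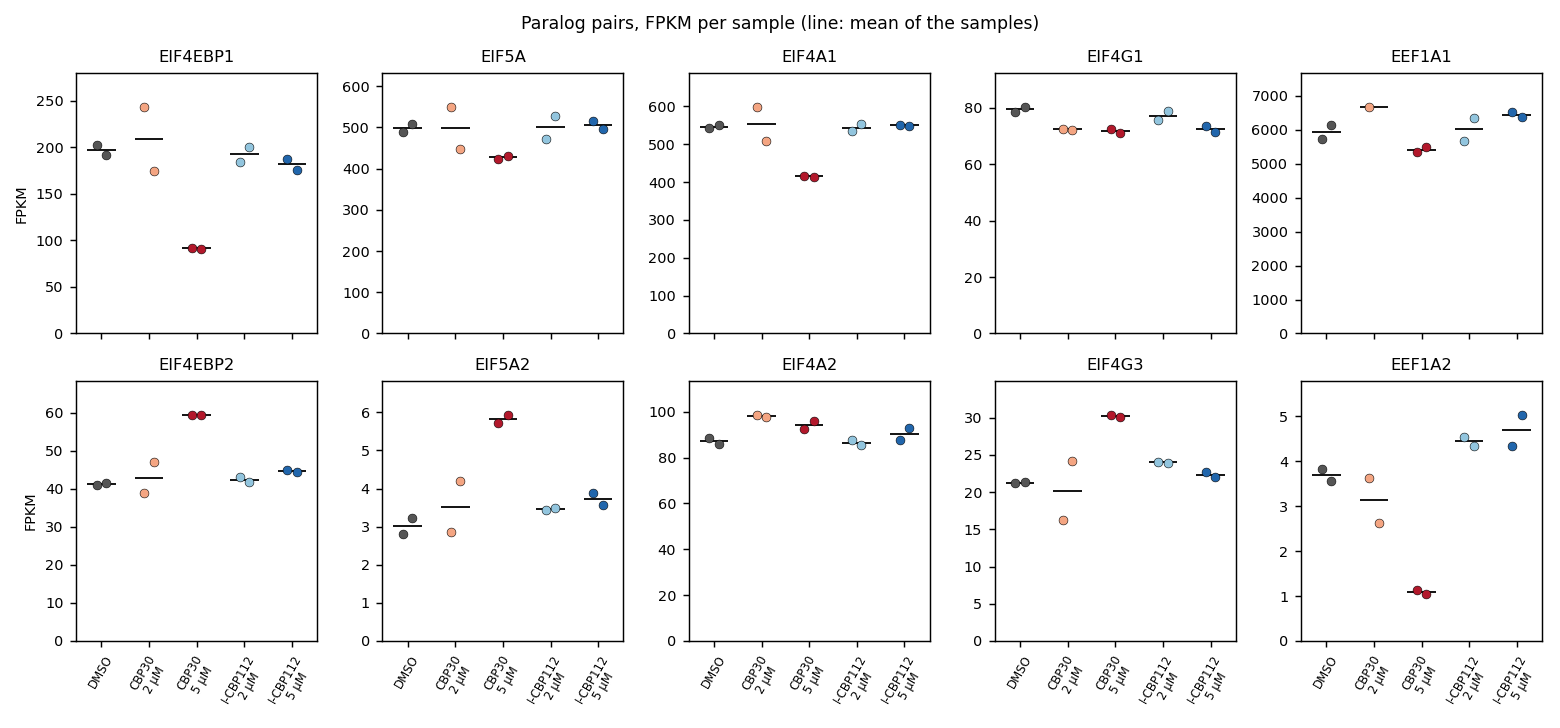
FPKM per sample (vertical axes, from 0) is shown by condition for 5 pairs of paralogs, with points for samples and a line for their mean; EEF1A1 at 2 µM CBP30 has a single point. With 5 µM CBP30 the points of EIF4EBP1, EIF4A1 and EEF1A2 are the lowest of their panels, those of EIF4EBP2, EIF5A2 and EIF4G3 are the highest, and EEF1A2 is at 1.13 and 1.05 FPKM.

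eIF5A, which carries the amino acid hypusine and helps the ribosome through difficult peptide bonds, is encoded by a highly expressed gene and a paralog of low level. EIF5A was at 490.0 and 507 FPKM with DMSO, 549 and 447 with 2 µM CBP30, 424 and 429.9 with 5 µM CBP30, 473 and 528 at 2 µM I-CBP112, and 515 and 497 at 5 µM I-CBP112. Its 5 µM CBP30 samples were the lowest, and the difference did not pass the threshold, at -0.22 (95% interval -0.46 to 0.02; adjusted p = 0.115). It was called lower with either 2 µM CBP30 replicate left out, with only the groups compared (adjusted p = 0.00503) and with quantile normalization (-0.11, adjusted p = 0.0261). EIF5A2 was at 2.82 and 3.22 FPKM with DMSO, 2.86 and 4.19 with 2 µM CBP30, 5.71 and 5.94 with 5 µM CBP30, 3.43 and 3.48 at 2 µM I-CBP112, and 3.89 and 3.58 at 5 µM I-CBP112. It had the largest rise among the called members (0.77 ± 0.13, adjusted p = 0.00287), and the ratio of EIF5A to EIF5A2 went from 173.7 and 157.7 with DMSO to 74.3 and 72.4 with 5 µM CBP30. EIF6, which keeps the ribosomal subunits apart, was at 136 and 138 FPKM with DMSO, 146 and 121 with 2 µM CBP30, 102 and 102 with 5 µM CBP30, 131 and 133 at 2 µM I-CBP112, and 131 and 128 at 5 µM I-CBP112. It was called lower with 5 µM CBP30 (-0.42 ± 0.081, adjusted p = 0.00453).

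Of the 6 eEF1 genes, 4 were called lower with 5 µM CBP30. EEF1A1, the most abundant member, was at 5734 and 6142 FPKM with DMSO, 5338 and 5489 with 5 µM CBP30, 5673 and 6349 at 2 µM I-CBP112, and 6521 and 6364 at 5 µM I-CBP112. With 2 µM CBP30 it was at 6661 in replicate 2 and is listed at 0 in replicate 1. That 0 was taken as missing and the fit dropped it. Both 5 µM CBP30 samples were below DMSO, and the difference did not pass the threshold (-0.13, 95% interval -0.40 to 0.14, adjusted p = 0.366). Of the windows of 50 bases of EEF1A1, 37.2% also occur in other genes, of which the copy EEF1A1P5 is the closest. EEF1A2, the paralog of muscle and neurons, was at 3.82 and 3.57 FPKM with DMSO, 3.64 and 2.63 with 2 µM CBP30, 1.13 and 1.05 with 5 µM CBP30, 4.55 and 4.34 at 2 µM I-CBP112, and 4.35 and 5.04 at 5 µM I-CBP112. At 5 µM CBP30 it fell to 29.5% of the DMSO mean (-1.17 ± 0.12, adjusted p = 2.92e-04), the strongest called difference of all members, whereas all 4 samples of I-CBP112 were above DMSO with no call. The eEF1B subunit EEF1B2 (-0.70 ± 0.11, adjusted p = 0.00198) and EEF1G (-0.38 ± 0.11, adjusted p = 0.0282) and the associated factor EEF1E1 (-1.03 ± 0.085, adjusted p = 1.12e-04) were called lower, and EEF1D was not (-0.29, 95% interval -0.76 to 0.17, adjusted p = 0.263). The replicates of 2 µM CBP30 lay far apart for EEF1D, at 296 and 181 FPKM. It was called lower with either of them left out and with only the groups compared (adjusted p = 0.0243). The EEF1G call was lost with no filter (-0.38, adjusted p = 0.0763) and in some fits with a sample left out. Almost all windows of EEF1G (98.3%) and 62.2% of those of EEF1B2 occur in other annotated transcripts too.

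EEF2, the translocase, was at 1552 and 1513 FPKM with DMSO, 1290 and 1228 with 2 µM CBP30, 915 and 886 with 5 µM CBP30, 1426 and 1518 at 2 µM I-CBP112, and 1414 and 1331 at 5 µM I-CBP112. It fell with the concentration of CBP30, and was called at 2 µM (-0.28 ± 0.072, adjusted p = 0.0237) and at 5 µM (-0.77 ± 0.072, adjusted p = 1.95e-04). EEF2K, the kinase that inactivates eEF2, was lower as well, with 10.8 and 10.8 FPKM with DMSO and 7.96 and 7.72 with 5 µM CBP30 (-0.41 ± 0.070, adjusted p = 0.00261). EEFSEC, which delivers the selenocysteine tRNA, was at 10.5 and 9.28 FPKM with DMSO, 10.6 and 8.69 with 2 µM CBP30, 8.04 and 7.87 with 5 µM CBP30, 10.1 and 9.36 at 2 µM I-CBP112, and 10.2 and 8.51 at 5 µM I-CBP112. Its 5 µM CBP30 samples were the lowest, but the difference did not pass (-0.28, 95% interval -0.54 to -0.01, adjusted p = 0.0814). EEFSEC was called lower with either 2 µM CBP30 replicate left out, with only the groups compared (adjusted p = 0.0343) and with the replicate block (adjusted p = 0.0221).

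Some rows that match by symbol hold other genes. EIF2C1 to EIF2C4 are the older symbols of the Argonautes, which bind small RNAs. EIF2C3 was at 6.55 and 6.17 FPKM with DMSO, 5.83 and 8 with 2 µM CBP30, 10.6 and 10.7 with 5 µM CBP30, 7.58 and 6.48 at 2 µM I-CBP112, and 6.75 and 7.7 at 5 µM I-CBP112. It was called higher with 5 µM CBP30 (0.66 ± 0.13, adjusted p = 0.00595). EIF2C1 was at 13.2 and 14 FPKM with DMSO, 6.49 and 10.7 with 2 µM CBP30, 14.6 and 13.3 with 5 µM CBP30, 14.5 and 14.1 at 2 µM I-CBP112, and 12.5 and 12.2 at 5 µM I-CBP112. It overlapped with DMSO at 5 µM CBP30 (0.03, 95% interval -0.39 to 0.46, adjusted p = 0.896) and was lowest in replicate 1 of 2 µM CBP30. The read-through row EEF1E1-MUTED was at 0.00892 and 2.48 FPKM with DMSO, 4.51 and 2.68 with 2 µM CBP30, 3.5 and 5.06 with 5 µM CBP30, 2.51 and 6.76 at 2 µM I-CBP112, and 5.23 and 7.13 at 5 µM I-CBP112. Its DMSO replicates lie far apart, 93.5% of its windows are shared, and its difference at 5 µM CBP30 (1.48, 95% interval 0.07 to 2.90, adjusted p = 0.0812) was not called.

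**Figure D4:**
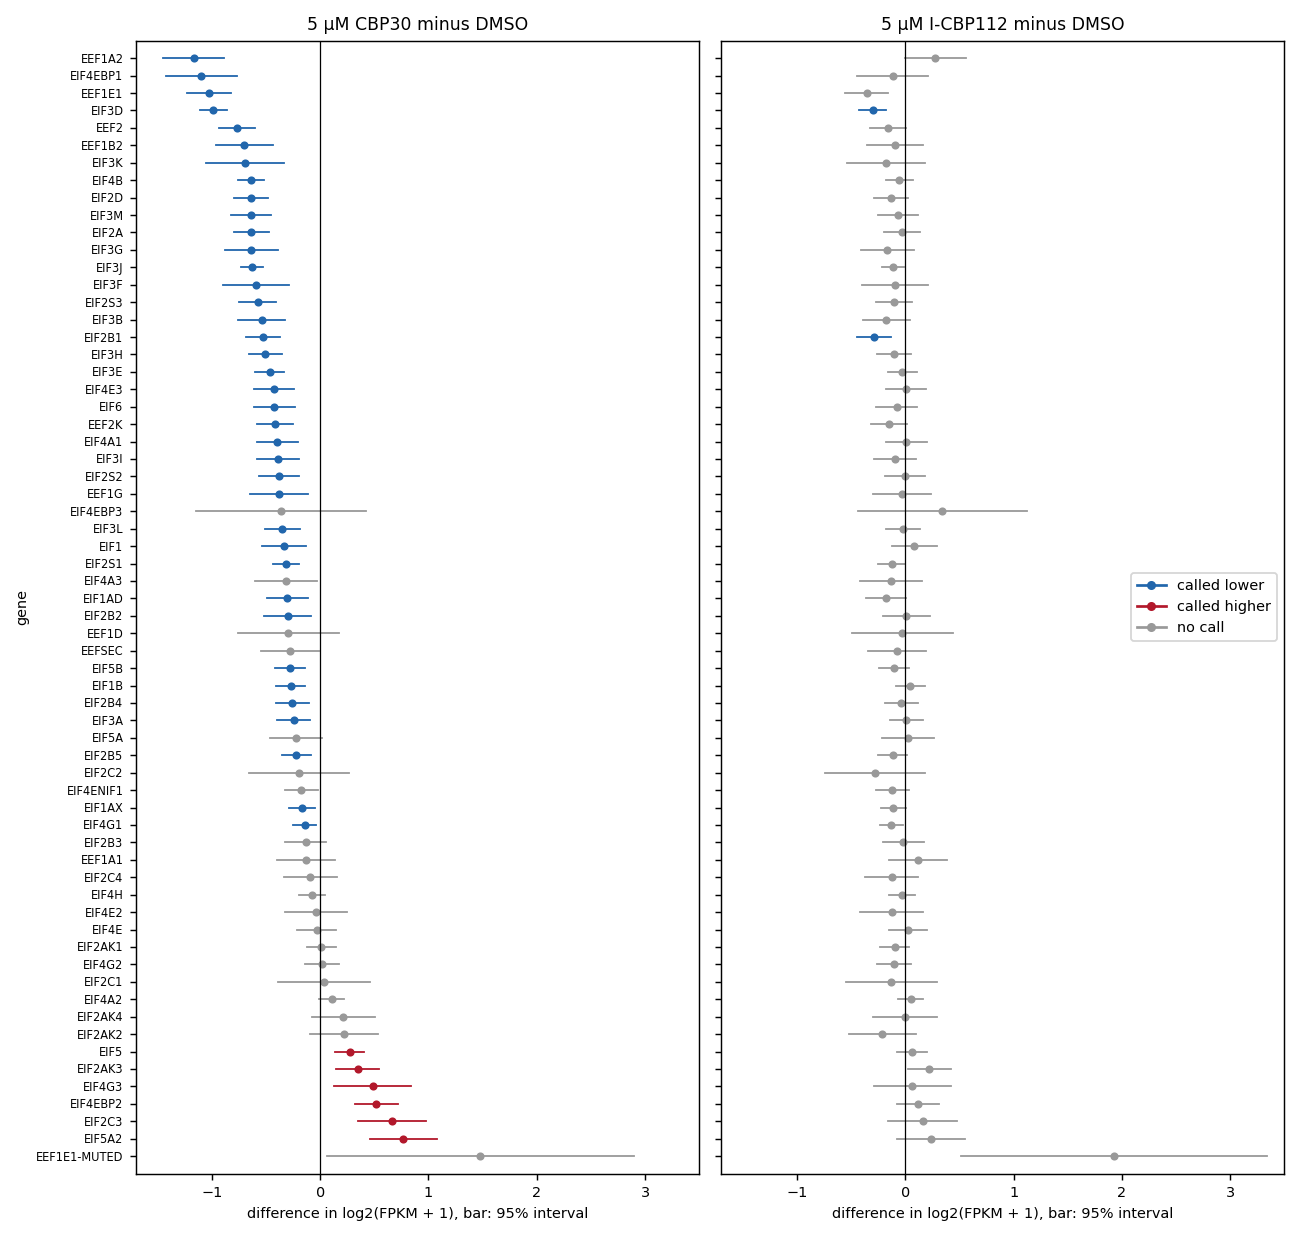
Points are the differences in log2(FPKM + 1) from DMSO of the 64 members, and bars the 95% intervals of the limma fit, with 5 µM CBP30 on the left and 5 µM I-CBP112 on the right, both sorted by the left panel. On the left 38 members are called lower (blue) and 6 higher (red), and on the right 2 are called lower, EIF3D and EIF2B1.

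At 2 µM CBP30, 17 of 64 members (26.6%) were called lower, beside 16.3% of all genes, and 2 were called higher, beside 15.9%. The median of the members was -0.07. The members called lower at both concentrations numbered 11, with 27 called at 5 µM only and 6 at 2 µM only. Without replicate 1 of 2 µM CBP30, 26 were called lower and 5 higher, beside 19.9% and 17.3% of all genes, and without replicate 2, 24 and 17, beside 28.2% and 28.7%. The leading falls at 2 µM were those of the Argonaute genes EIF2C2 (-0.86 ± 0.20, adjusted p = 0.0161) and EIF2C1 (-0.64 ± 0.18, adjusted p = 0.0325), which have long transcripts, followed by EEF1E1 (-0.45 ± 0.085, adjusted p = 0.00818) and EIF3D. Without replicate 1, EIF2C2 was at -0.55 (adjusted p = 0.0222) and EIF2C1 at -0.32 (adjusted p = 0.0128), and EEF1E1 had the largest fall (-0.59, adjusted p = 1.44e-04). Both calls among the higher members, EIF4EBP3 (1.18 ± 0.33, adjusted p = 0.0333) and EIF4A2 (0.17 ± 0.051, adjusted p = 0.0419), were lost in some of the alternatives. Of the 17 lower calls, 9 passed in every alternative other than leaving out a sample or fitting only the groups compared, and 0 passed in all of them. With only the groups compared, limma called none lower or higher, with 10 lower and 1 higher at an unadjusted p under 0.05.

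Transcript length differed between the called groups. At 5 µM CBP30 the 6 members called higher had a median transcript length of 6053.5 bases (4536 to 19660), the 38 called lower of 2559 (772 to 9978) and the 20 without a call of 2543.5. Across the tested genes, the deviation from DMSO had a rho of 0.197 and 0.196 with length in the 5 µM CBP30 samples. With the length trend removed from each library, 39 members were called lower and 8 higher at 5 µM CBP30, and 24 and 5 at 2 µM. The shares of all genes called in this setting are not given, and whether they rose as well was not tested. EIF1B and EIF2B5 lost their calls at 5 µM, and EIF4A2 and EEF1E1-MUTED became called higher, and EIF2C2, EIF2C4 and EIF4ENIF1 lower. The part of length in the other calls was not tested.

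**Figure D5:**
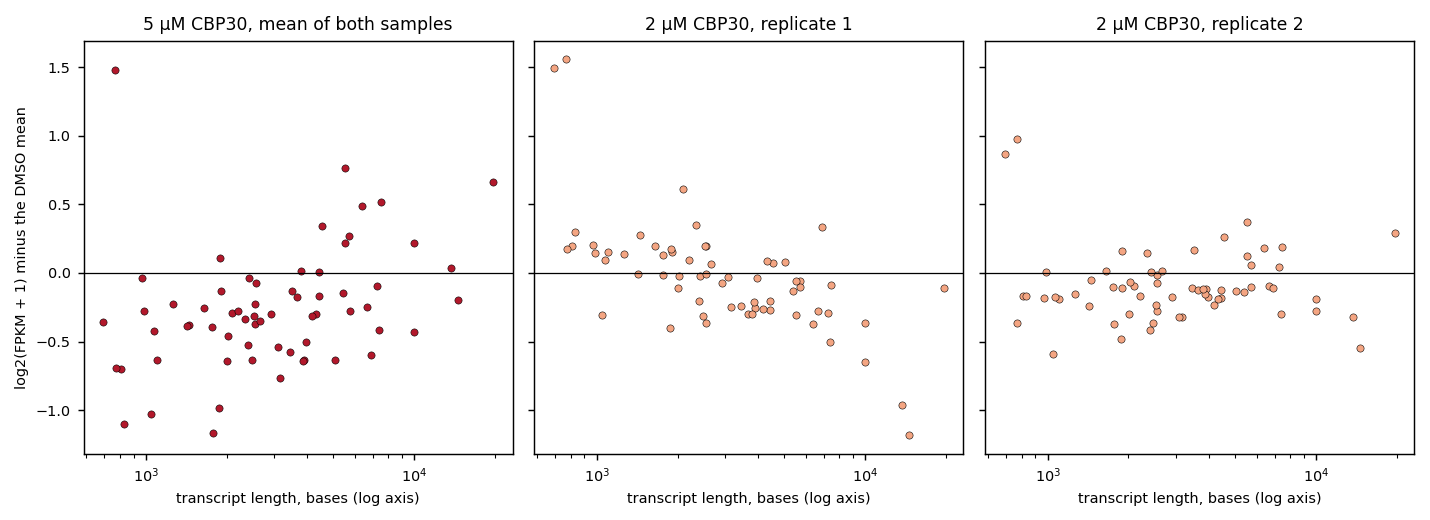
Each point is a member, with its transcript length (horizontal axis, log scale) and its log2(FPKM + 1) minus the DMSO mean (vertical axis), for the mean of the 5 µM CBP30 samples and for each replicate of 2 µM CBP30. In replicate 1 of 2 µM CBP30 long transcripts lie low and short ones high, which is not seen in replicate 2, and with 5 µM CBP30 the members above 0 are mostly long.

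Going from 2 to 5 µM CBP30, 30 members were called lower, beside 21.3% of all genes, and 10 higher, beside 17.7%. EIF4EBP1 (-1.17 ± 0.14, adjusted p = 0.00245) and EEF1A2 (-0.97 ± 0.12, adjusted p = 0.00261) had strong falls between the concentrations, and all 12 eIF3 subunits but EIF3A were among the 30. In a limma fit of these groups alone, which holds 4 samples, no member was called, beside 0.0313% and 0.0156% of all genes lower and higher. At an unadjusted p under 0.05, 25 members were lower and 6 higher in that fit.

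With I-CBP112 few of these mRNAs were called, at a share near that of all genes. At 5 µM, limma called EIF2B1 and EIF3D lower, which is 2 of 64 members (3.1%) beside 3.29% of all genes, and none higher, beside 3.84%. With only the groups compared 6 were lower, beside 6.74% of all genes. At an unadjusted p under 0.05 there were 6 lower and 2 higher. The median of the members was -0.08 and 45 of 64 were below 0. At 2 µM no member was called, beside 0.774% of genes called lower and 0.907% called higher, with 5 lower and 1 higher at an unadjusted p under 0.05. The median of the members at 2 µM was -0.04, and 51 of 64 were below 0. Between 2 and 5 µM I-CBP112 limma called none of the members, with 0 lower and 1 higher at an unadjusted p under 0.05, beside 0.00782% and 0.0547% of all genes. Without either of the 2 µM CBP30 libraries 14 members were called lower and 3 higher at 5 µM I-CBP112, beside 12.5% and 10.5% of all genes. Without replicate 1 or replicate 2 of DMSO limma called none, with 5 and 3 lower at an unadjusted p under 0.05.

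CBP30 and I-CBP112 were compared directly at matched concentration and time, which gives 2 comparisons. The authors describe I-CBP112 as a less potent inhibitor, and whether equal concentrations inhibit equally was not tested. At 5 µM, 32 members (50.0%) were lower with CBP30 than with I-CBP112, beside 17.9% of all genes, and 5 were higher, beside 13.6%. The 32 held all 12 eIF3 subunits, the 3 eIF2 subunits, 3 eIF2B subunits, EEF2 and EEF2K. Large differences were those of EEF1A2 (-1.44 ± 0.12, adjusted p = 3.26e-04), EIF4EBP1 (-0.98 ± 0.14, adjusted p = 0.00264) and EIF3D (-0.69 ± 0.053, adjusted p = 2.38e-04). The 5 members higher with CBP30 were EIF2AK2, EIF2C3, EIF4EBP2, EIF5 and EIF5A2, by 0.21 to 0.53. Of the 32, 14 passed in every alternative in which they were tested, and of the 5 none did. For EIF4E the difference between the compounds was -0.06 (95% interval -0.23 to 0.12; adjusted p = 0.601), for EIF4G1 -0.01 (95% interval -0.12 to 0.09; adjusted p = 0.841) and for EEF1A1 -0.25 (95% interval -0.52 to 0.02; adjusted p = 0.137), so that for EEF1A1 the interval includes a fall of 0.52.

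At 2 µM the difference between the compounds was called for 8 members (12.5%), all lower with CBP30, beside 8.48% of all genes called lower and 7.17% higher. They were EEF2K, EIF2B5, EIF2C1, EIF2C2, EIF3A, EIF3D, EIF3J and EIF4E3. Leaving out either 2 µM CBP30 replicate raised the counts in both directions, and the shares of all genes called rose as well. The change from 2 to 5 µM also differed between the compounds for 10 members, all lower for CBP30 relative to I-CBP112, beside 3.3% of all genes called lower and 1.64% called higher. From 2 to 5 µM these 10 differed by -1.17 to -0.35 with CBP30 and by -0.11 to 0.08 with I-CBP112. With the replicate block limma called none, beside 1.09% of all genes lower and 0.485% higher, with 27 lower at an unadjusted p under 0.05. With only the groups compared limma called none, beside 0.579% and 0.211% of all genes, with 26 lower at that unadjusted threshold. The comparisons of both compounds with DMSO share the same DMSO samples.

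Genes that act with these factors were followed in lists. Of 69 tested genes, 30 were called lower and 7 higher with 5 µM CBP30, and 21 and 9 with 2 µM. That is 43.5% and 10.1% at 5 µM, beside 25.4% and 21.2% of all genes, and 30.4% and 13.0% at 2 µM, beside 16.3% and 15.9%. With 5 µM I-CBP112 1 was called lower and 1 higher (1.4% each), beside 3.29% and 3.84% of all genes. With 2 µM I-CBP112 limma called none, beside 0.774% and 0.907% of all genes. At an unadjusted p under 0.05, 5 were lower and 1 higher at 2 µM I-CBP112. The enzymes that make hypusine on eIF5A and diphthamide on eEF2 were lower in 6 of 9 cases and higher in none at 5 µM CBP30, led by DPH1, of the first step of diphthamide synthesis (-0.82 ± 0.076, adjusted p = 1.83e-04). Of 12 mitochondrial translation factors 8 were lower, led by the peptidyl tRNA hydrolase ICT1 (-0.72 ± 0.082, adjusted p = 4.61e-04), and MTFMT, which formylates the mitochondrial initiator tRNA, was higher (0.29 ± 0.056, adjusted p = 0.00501).

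Of 11 genes of the eIF2 phosphatase and stress response, 5 were lower (45.5%) and 1 was higher (9.1%) with 5 µM CBP30. The shares of all genes were 25.4% and 21.2%. The largest fall was that of TRIB3, a pseudokinase gene induced by ATF4, whose mean went from 194 FPKM with DMSO to 64.6 (-1.57 ± 0.11, adjusted p = 5.10e-05). The phosphatase subunit PPP1CB was higher (0.59 ± 0.061, adjusted p = 2.83e-04). Of 11 genes of mTORC1 and its inputs 4 were lower (36.4%) and 1 higher (9.1%), beside these same shares of all genes. MLST8, an mTOR-binding subunit, was at -0.78 ± 0.14, adjusted p = 0.00347 and TSC1, a repressor of the pathway, at 0.42 ± 0.13, adjusted p = 0.0393.

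Of 8 genes of termination and recycling 3 were lower (37.5%) and none higher, beside 25.4% and 21.2% of all genes. The recycling ATPase ABCE1 was at -0.61 ± 0.077, adjusted p = 6.94e-04. Of 7 genes of poly(A)-binding proteins and their partners 2 were lower and 1 higher, 28.6% and 14.3% and so near the shares of all genes, with PABPC4 at -0.60 ± 0.053, adjusted p = 1.46e-04 and its inhibitor-type partner PAIP2 at 0.36 ± 0.072, adjusted p = 0.00572. Of 11 other helpers of initiation 2 were lower and 3 higher, which is 18.2% and 27.3%, and the eIF5 mimic genes parted, with BZW2 lower (-0.42 ± 0.053, adjusted p = 7.32e-04) and BZW1 higher (0.52 ± 0.055, adjusted p = 3.28e-04).

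Set against the start sites shown above, 9 of the 11 members with a C and pyrimidine run at the start were called lower with 5 µM CBP30 and none higher, with a median difference of -0.64. Among the 41 members without it, 21 were called lower and 6 higher, with a median of -0.26. Those with the run and no call were EEF1A1 and EIF4A2. Of the 14 members with CACGTG, 6 were lower, 1 was higher and 7 had no call (median -0.28), and of the 38 without it 24 were lower, 5 higher and 9 without a call (median -0.30). These are counts over few genes that share subunits of the same complexes, and no test was made.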

How the data were processed

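Stranded libraries of polyadenylated RNA from 10 samples were sequenced as single reads, and the authors processed them with the Nextpresso pipeline on hg19. The submitters' processing notes name TopHat2 2.0.10, Bowtie 1.0.0, SAMtools 0.1.19, Cufflinks 2.2.1 and Cuffnorm. The gene annotation is not given in the sources used here. The authors deposited FPKM values, 1 column per sample, with no replicates pooled. These hold no read counts. Relative depths of 0.914 to 1.08 came from the median deviation of log FPKM from the gene mean, over 604 genes detected in few samples. No counting interval was derived.

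Samples were grouped by their labels. limma 3.58.1 (R 4.3.3) was applied to log2(FPKM + 1) with the 5 group means in 1 fit (5 residual degrees of freedom and 2.19 from eBayes, with a trend). The 12788 genes averaging 0.5 FPKM or more were tested, p-values were adjusted by Benjamini and Hochberg over all of them, and an adjusted p under 0.05 was called. A single 0 beside 9 values of at least 10 FPKM was taken as missing (23 rows). The script was tested on simulated data. Tables were built with pandas 2.3.3 and plots with matplotlib 3.10.9, under Python 3.11.15.

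Transcript lengths, shared windows and positions came from GENCODE transcripts on GRCh37, and start-site windows from RefSeq. Values in every sample are given for the member of each role with the highest DMSO level, the largest called fall and rise with 5 µM CBP30, members called with I-CBP112, and 12 members set by name. For the other lists the largest called fall and rise are given. The members and lists were chosen with earlier results of these data known. Alternatives were another pseudocount (0.1), no filter and a filter at 5 FPKM, median centring, quantile normalization, no variance trend, fitting only the groups compared, a block for the replicate number, the listed 0 as a value, the length trend removed, and each sample left out. The comparison of the concentration effects of the compounds was added after the data were seen. Some of the cell markers are not reported here.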

Additional observations from a re-analysis of the deposited data

Results flagged for a closer look

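The change from 2 to 5 µM was compared between the compounds, as the CBP30 change minus the I-CBP112 change, with limma on all 10 samples. It was called for 10 members, all lower, beside 3.3% of all genes called lower and 1.64% called higher, and these 10 are listed for that difference between the compounds. From 2 to 5 µM all 10 were lower with CBP30 (-1.17 to -0.35), while with I-CBP112 4 were lower and 6 higher (-0.11 to 0.08). The largest differences were those of the eIF4E repressor gene EIF4EBP1 (-1.08 ± 0.20, adjusted p = 0.0338) and the elongation factor gene EEF1A2 (-1.04 ± 0.17, adjusted p = 0.0285). EEF1B2, of the eEF1B complex, differed by -0.74 ± 0.16, adjusted p = 0.0477. The scanning factors EIF1 and EIF1B differed by -0.64 ± 0.12, adjusted p = 0.038 and -0.43 ± 0.080, adjusted p = 0.0354, and the tRNA carrier EIF2A by -0.46 ± 0.098, adjusted p = 0.0478. Of the eIF3 subunits, EIF3D differed by -0.43 ± 0.075, adjusted p = 0.0313, EIF3E by -0.45 ± 0.081, adjusted p = 0.0335 and EIF3M by -0.60 ± 0.11, adjusted p = 0.0341. The helicase cofactor EIF4B differed by -0.43 ± 0.074, adjusted p = 0.0308. The difference takes in the samples of both compounds at both concentrations. Among them are the 2 µM CBP30 samples, of which replicate 1 stood apart by transcript length. The DMSO samples enter it only through the shared estimate of the spread. Leaving out either 2 µM CBP30 replicate raised the counts of members called in both directions, and the shares of all genes called rose as well. Leaving out any other single sample removed every call among the members. None of the 10 calls held in every alternative.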

How the results depend on the processing

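The count of members called lower with 5 µM CBP30 against DMSO stayed within 1.5 times of 38 in every alternative run (27 to 44 with a sample left out), and so did that against 5 µM I-CBP112 apart from samples left out (15 to 39). The higher calls ranged over 3 to 8 and 0 to 9 with a sample left out, and the latter was 9 with only the groups compared. With 2 µM CBP30 against DMSO, lower calls were 0 with only the groups compared (10 at an unadjusted p under 0.05 by limma) and 4 to 26 with a sample left out. Higher calls were 1 with no filter, the filter at 5 FPKM, quantile normalization, no variance trend or the block, 0 with only the groups compared (1 at an unadjusted p under 0.05), 5 with the length trend removed and 0 to 17 with a sample left out. With 5 µM I-CBP112, lower calls were 1 with no filter, the filter at 5 FPKM, median centring, no variance trend or the block, 4 with quantile normalization or the length trend removed, 6 with only the groups compared and 0 to 14 with a sample left out, and higher calls were 1 with the length trend removed and 0 to 3. With 2 µM I-CBP112, lower calls were 1 with quantile normalization, 2 with the length trend removed and 0 to 6 with a sample left out, and higher calls 0 to 1. For 5 against 2 µM CBP30, both counts were 0 with only the groups compared, and 15 to 37 lower and 0 to 14 higher with a sample left out. For CBP30 against I-CBP112 at 2 µM, lower calls were 14 with quantile normalization or the length trend removed, 0 with only the groups compared (7 at an unadjusted p under 0.05) and 0 to 20 with a sample left out, and higher calls were 1 with median centring, quantile normalization or the block, 3 with the length trend removed and 0 to 20. For the difference between the compounds in the change from 2 to 5 µM, lower calls were 5 with no filter, 0 with only the groups compared or the block (26 and 27 at an unadjusted p under 0.05) and 0 to 34 with a sample left out, and higher calls were 1 with the filter at 5 FPKM, median centring, quantile normalization or the length trend removed and 0 to 13. The shares of all genes called moved as well in some settings. For CBP30 against I-CBP112 at 2 µM, 0.0704% were lower and 0.0391% higher with only the groups compared. In the main fit these shares were 8.48% and 7.17%. They rose with either 2 µM CBP30 replicate left out and fell with any other sample left out. For the filters, normalizations and length trend the shares are not given. The causes were not tested. A sample left out leaves its group with 1 sample, which is assumed to vary like the others.

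The replicate numbers did not pair the samples: over 10 pairs of conditions, the correlation of same-numbered deviations from the group means was -0.0749 to 0.0922. With the replicate block, 5 µM CBP30 against DMSO gave 38 lower and 6 higher calls.

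Some small differences reversed. For CBP30 against I-CBP112 at 2 µM with the length trend removed, EIF2C3 went from -0.03 to 0.29 and EIF6 from 0.01 to -0.17. With a sample left out, EIF6 ranged over -0.12 to 0.15 in that comparison and over -0.17 to 0.0896 for 2 µM CBP30 against DMSO, EIF4EBP2 over -0.13 to 0.15 in the former and EIF4G3 over -0.37 to 0.18 in the latter.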
